A study of Mus musculus with 6 samples.

Results

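In D4M-3A cells, a mouse melanoma line, the BMP ligand gene Bmp2 was 2.66-fold higher in Nfkbiz knockout (Nfkbiz KO) than in control (Ctrl) cells. The classical BMP response genes Id1, Id3 and Smad6 were lower. The response genes Bambi and Msx1 were higher, and for Id2 and Smad7 no difference passed the test. Tmem100, also a response gene, was higher too, but had only 2 to 6 reads per control sample. It met the filter on low counts through its knockout samples. The 10 genes described here are 2 BMP ligands (Bmp2 and Bmp4), 2 BMP receptors (Bmpr1a and Bmpr2), the receptor-regulated SMAD gene Smad9, and 5 genes that BMP signals commonly induce (Id1, Id2, Id3, Smad6 and Smad7). They were chosen by name from the 43043 genes of the deposited tables, with earlier results of these data known, and all 10 were found. The study transduced these cells with lentivirus, carrying either CRISPR-Cas9 directed at Nfkbiz, the gene of the NF-κB co-regulator IκBζ (knockout), or the empty construct (control), selected both with puromycin, and sequenced the RNA of 3 samples of each. Both groups were grown in serum-containing medium, and the labels give no further treatment. The study counts the samples of a condition as independent experiments, but the sources used here do not say whether the knockout cells were a pool or a single clone. P-values therefore measure the spread between these samples, and effects of the knockout cannot be told apart from other differences between separately transduced cells.

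Bone morphogenetic proteins (BMPs) are secreted ligands of the TGF-β family. They assemble type I and type II receptor kinases, which phosphorylate SMAD1, SMAD5 and SMAD9; together with SMAD4, these enter the nucleus and switch on target genes. Best known among the targets are the ID genes, whose products block basic helix-loop-helix transcription factors, and Smad6 and Smad7, whose products feed back to dampen the pathway. Outside the cell, antagonists such as Gremlin 1 and Noggin bind the ligands and keep them from the receptors. Melanocytes arise from the neural crest, a tissue whose formation depends on BMP signals.

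Between 32219900 and 44927203 reads were counted on genes per sample, and 14419 genes remained for testing after the filter on low counts. The targeted gene Nfkbiz had between 63.4 and 75.2 TPM in the control and between 34.7 and 35.1 TPM in the knockout, so that its RNA was reduced but not lost. The study reports efficient depletion of the IκBζ protein by immunoblot, which RNA levels do not measure. TPM (transcripts scaled to transcript length and library size) is the authors' measure of level and is the only scale on which genes are compared with each other here. Of 12 melanocyte lineage markers, 10 had a mean below 1 TPM over all samples. Sox10, Tyr, Kit and Ednrb had 0 reads in all 6 samples. Mitf had 0.951 ± 0.26 TPM in the control and 0.953 ± 0.19 TPM in the knockout (SD, n = 3 each). Axl, a marker of dedifferentiated melanoma, had 768 ± 72.2 and 901 ± 7.68 TPM, and Sox9 had 24.7 ± 2.9 and 32.2 ± 1.35 TPM. Ngfr, also a marker of dedifferentiation, had 0 to 6 reads per sample. In the edgeR test described below, the adjusted p was 0.089 for Axl and 0.036 for Sox9. The summed TPM of the 12 markers, which was almost entirely that of Axl, lay between 718 and 854 in the control and between 926 and 942 in the knockout. Of 12 markers of other cell types, 8 had a mean below 1 TPM. Col1a1, a fibroblast collagen gene, was at 367 ± 25.2 TPM in the control and 263 ± 17.4 TPM in the knockout. Its log2 fold change was -0.58 (adjusted p = 1.2e-05, same edgeR test). Col1a1 carried most of the summed level. That sum lay between 375 and 432 TPM in the control and between 286 and 318 TPM in the knockout. Pdgfra, also found in fibroblasts, did not share the fall of Col1a1, with 36.7 ± 3.83 TPM in the control and 39.5 ± 0.992 TPM in the knockout. The part of these markers in the results below was not tested.

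Bmp2 (chromosome 2 of GRCm39, 133394079 to 133404816, plus strand) encodes the ligand BMP2. It had 101, 103 and 96.4 TPM in replicates 1, 2 and 3 of the control, and 293, 281 and 284 TPM in the knockout in the same order. The lowest knockout sample was thus far above the highest control sample. The log2 fold change from read counts was 1.41 with a standard error of 0.05 (adjusted p = 1.5e-09, Benjamini-Hochberg over all tested genes, quasi-likelihood test of edgeR). As a ratio this was 2.66, with a 95% interval from 2.47 to 2.87. In bulk RNA, more cells expressing a gene and more RNA per cell cannot be told apart. Among 14 BMP ligand genes listed, Bmp2 made up between 98.1% and 98.7% of the summed TPM in the control and 99.6% in each knockout sample.

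Bmp4, which encodes the closest relative of BMP2, was barely detected. Its TPM was 0.562, 0.494 and 1.01 in the control and 0.396, 0.360 and 0.423 in the knockout, from 13, 15 and 30 reads and from 8, 9 and 12 reads. All 3 knockout values lay below all 3 control values. The log2 fold change of -1.01 (standard error 0.40) had an adjusted p of 0.069 in the same edgeR test, and it was -0.64 without control replicate 3, the highest sample. Bmp4 met the filter on low counts through its control samples. Of the other 12 ligand genes, Bmp6 was the only one tested, with 0.446 ± 0.0554 TPM in the control and 0.48 ± 0.134 TPM in the knockout (SD, n = 3 each) and a log2 fold change of 0.02 (adjusted p = 0.97, same edgeR test). Bmp7 and Gdf6 had 0 reads in every sample.

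**Figure D1:**
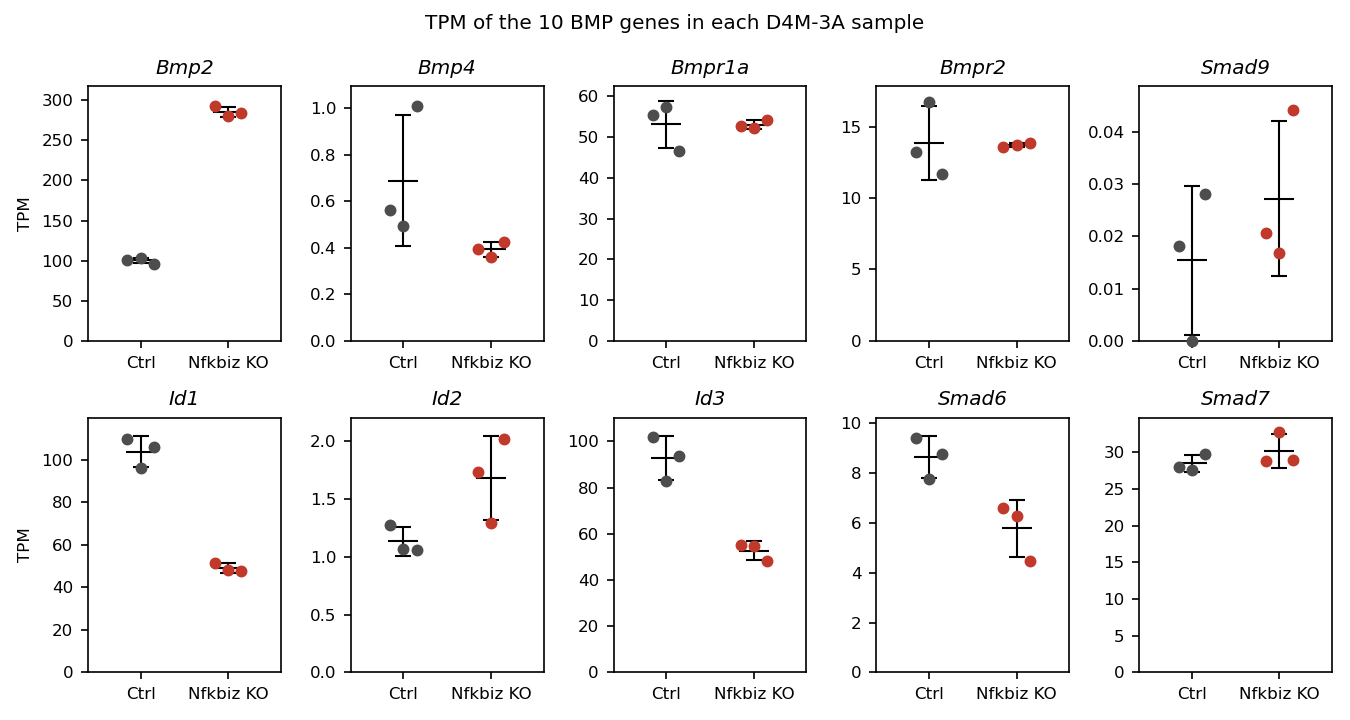
TPM (linear axes from 0, scaled per gene) of the 10 genes in each of the 3 Ctrl (grey) and 3 Nfkbiz KO (red) samples, with the mean and SD as black lines. Bmp2 lies between 281 and 293 TPM in Nfkbiz KO against at most 103 TPM in Ctrl, while Id1, Id3 and Smad6 lie below their Ctrl samples and Bmpr1a, Bmpr2 and Smad7 overlap.

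The receptor genes overlapped between the groups. Bmpr1a, the gene of a type I receptor for BMP2 and BMP4, had 55.4, 57.4 and 46.5 TPM in the control and 52.6, 52.2 and 54.2 TPM in the knockout. Its log2 fold change was -0.11 with a 95% interval from -0.24 to 0.02 (adjusted p = 0.19, edgeR quasi-likelihood test). Bmpr2, the gene of the type II receptor, had 13.2, 16.7 and 11.7 TPM in the control and 13.6, 13.7 and 13.9 TPM in the knockout, with a log2 fold change of -0.11 and an interval from -0.29 to 0.06 (adjusted p = 0.30, same test). By TPM, all 3 knockout samples fell inside the wider range of the control samples for both genes. Without control replicate 3, the log2 fold changes were -0.17 for Bmpr1a (adjusted p = 0.012, edgeR) and -0.19 for Bmpr2 (adjusted p = 0.038, edgeR). With all samples, the intervals of both genes reach to at most 0.29 on the log2 scale in either direction, against the 1.41 of Bmp2.

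Of 12 receptor and co-receptor genes listed, 10 were tested and 5 passed at an adjusted p of 0.05 or less (edgeR), 4 of them higher and 1 lower in the knockout. Over all genes tested, 36.6% passed, 18.2% higher and 18.4% lower. The median log2 fold change of the 10 was -0.03, against -0.02 over all genes tested. Bambi, which encodes a decoy receptor without kinase, rose from 3.54, 3.54 and 2.89 TPM to 6.97, 7.62 and 7.82 TPM, which is 1.06 higher on the log2 scale (edgeR, standard error 0.11). Smaller rises were those of the co-receptor genes Rgmb and Eng, with log2 fold changes of 0.42 and 0.35, and Rgma, a relative of Rgmb, fell by 0.42 on the log2 scale. Eng, which encodes endoglin, was the most abundant of these genes with 196 ± 18.2 TPM in the control and 268 ± 3.63 TPM in the knockout (SD, n = 3 each). Acvrl1, the gene of ALK1, an endothelial type I receptor for BMP9 and BMP10, had 15, 23 and 7 reads in the control and 29, 42 and 30 in the knockout. Its log2 fold change of 1.13 passed (adjusted p = 0.048, edgeR); with 1 sample left out it ranged from 0.73 to 1.57 and passed only without control replicate 2. It also did not pass with DESeq2 (adjusted p = 0.076), with upper quartile factors in edgeR (adjusted p = 0.053), or with limma on log2(TPM + 1) and log2(TPM + 0.1) (adjusted p = 0.074 and 0.11). The endothelial markers Cdh5 and Pecam1, whose part in the values of Acvrl1, Eng and Tmem100 was not tested, differed from each other. Cdh5 had 0.548 ± 0.139 TPM in the control and 1.54 ± 0.313 TPM in the knockout. Its log2 fold change was 1.34 (adjusted p = 0.0023, edgeR). Pecam1 had 13, 15 and 8 reads in the control and 0, 15 and 19 in the knockout. Its log2 fold change was -0.16 (adjusted p = 0.88, edgeR).

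The largest amount of RNA in the pathway came from an antagonist. Grem1 (chromosome 2, 113576509 to 113589000, minus strand), the gene of Gremlin 1, had 431, 499 and 417 TPM in the control and 869, 838 and 880 TPM in the knockout. No sample of one group came near those of the other. The log2 fold change was 0.85 with a standard error of 0.059 (edgeR, adjusted p = 3.3e-07), which is 1.80-fold with a 95% interval from 1.65 to 1.97. The interval of Bmp2, from 2.47-fold, lay above that of Grem1. The ratio of Grem1 to Bmp2 in TPM was 4.26, 4.85 and 4.33 in the control and 2.97, 2.99 and 3.10 in the knockout (p = 0.1 in a two-sided exact permutation test, which 3 samples against 3 cannot go below). Every sample held more Grem1 than Bmp2 RNA. This ratio, like those given below, was chosen after the values were seen.

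Of 17 secreted antagonists and binders, 10 were tested, with 4 higher and 2 lower in the knockout (edgeR; 18.2% and 18.4% of all genes tested) and a median log2 fold change of 0.07. Besides Grem1, the antagonist genes Chrdl1 and Nbl1 were higher, with log2 fold changes of 0.89 and 0.74, but at 0.876 ± 0.031 and 6.64 ± 0.374 TPM in the knockout (SD, n = 3 each) their levels were a small part of that of Grem1. Twsg1, whose product modulates BMP binding to chordin, had a log2 fold change of 0.23. Lower were Bmper, the gene of a BMP-binding endothelial regulator, at 11.6 ± 0.816 TPM in the control and 6.63 ± 0.721 TPM in the knockout, and Fst, the gene of follistatin, at 7.04 ± 0.603 and 4.74 ± 0.679 TPM. Their log2 fold changes were -0.95 and -0.65. Nog, the gene of Noggin, had 0 reads in all samples.

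**Figure D2:**
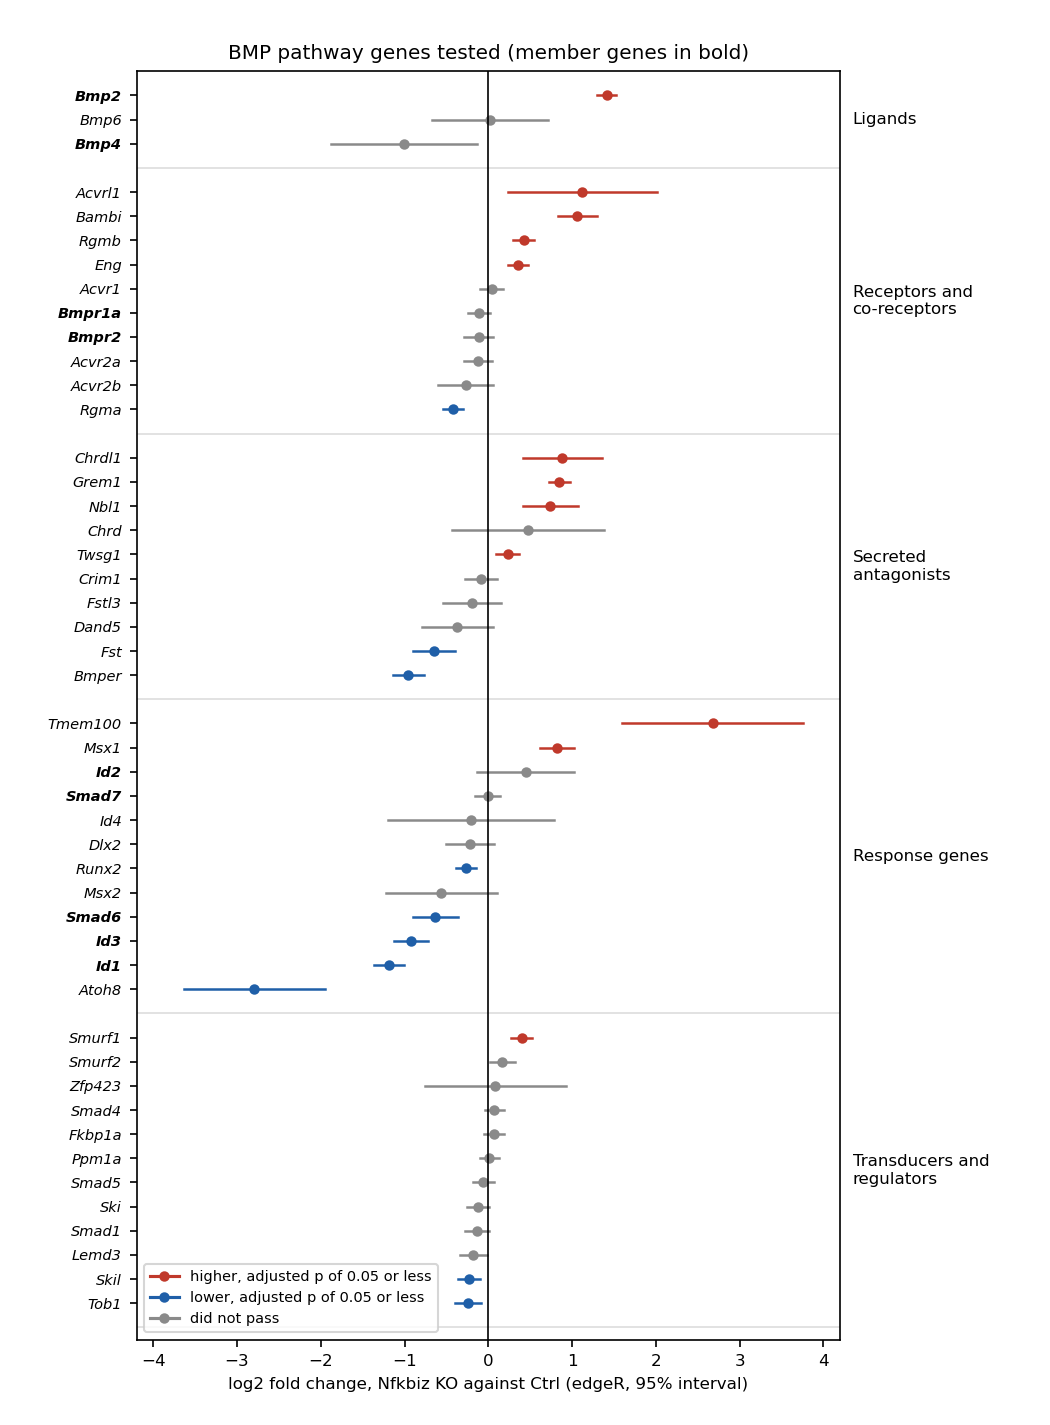
Log2 fold changes of the 47 tested BMP pathway genes (points) with 95% intervals (lines) from edgeR, grouped by role, red where higher and blue where lower in Nfkbiz KO at an adjusted p of 0.05 or less, grey where this was not reached. The 9 tested genes of the main group are in bold, and genes in 2 lists are drawn once; Bmp2 and Grem1 lie to the right of 0, Id1, Id3 and Smad6 to the left, and the SMAD transducers close to 0.

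The SMAD genes that carry the BMP signal gave log2 fold changes near 0. Smad1 had 24.9 ± 2.27 TPM in the control and 24.5 ± 0.509 TPM in the knockout, Smad5 had 50 ± 5.04 and 51.3 ± 0.37 TPM, and the shared partner Smad4 had 79.1 ± 6 and 88.3 ± 3.76 TPM (SD, n = 3 each). None of these 3 genes passed the edgeR test, and their log2 fold changes were -0.13, -0.06 and 0.07. Smad9, which encodes the third of the BMP-specific SMADs, had 1, 0 and 2 reads in the control and 1, 1 and 3 reads in the knockout. It was too low to be tested, and no difference was detectable at this depth. Of the 15 transducers and intracellular regulators, 14 were tested, 1 was higher and 3 were lower in the knockout, with a median log2 fold change of -0.03. These 4 genes were 28.6% of those tested, below the 36.6% of all genes. The gene that was higher was Smurf1, whose product is a ubiquitin ligase for BMP SMADs, with a log2 fold change of 0.40. Apart from Smad6, the lower genes were the SMAD co-repressor gene Skil and the BMP SMAD inhibitor gene Tob1, at -0.23 and -0.24; by TPM, which counts exon reads, both overlapped between the groups.

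Id1 (chromosome 2, 152566218 to 152579544, plus strand) is the gene by which BMP activity is most often read. It had 110, 96.1 and 106 TPM in the control and 51.6, 48.2 and 47.6 TPM in the knockout. The knockout samples lay close together and far below the lowest control sample. The log2 fold change was -1.18 (edgeR, standard error 0.082, adjusted p = 3e-07), a 2.27-fold decrease with a 95% interval from 2.01 to 2.57. Id3 (chromosome 4, 135870808 to 135873066, plus strand), which encodes a closely related inhibitor, had 102, 82.9 and 93.7 TPM in the control and 55.3, 54.8 and 48.2 TPM in the knockout. Its log2 fold change was -0.92 (edgeR, standard error 0.093, adjusted p = 8.8e-06), a 1.89-fold decrease with an interval from 1.64 to 2.18. Across the samples both genes were lowest in knockout replicate 3, and in the control both were lowest in replicate 2.

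The other 2 ID genes were near the limit of what can be compared. Id2 had 32, 30 and 34 reads in the control and 38, 35 and 62 in the knockout, that is 1.13 ± 0.125 and 1.68 ± 0.364 TPM (SD, n = 3 each). Its log2 fold change of 0.45 had a 95% interval from -0.13 to 1.03 and did not pass (adjusted p = 0.22, edgeR). Normalized counts of Id2 overlapped between the groups, whereas its TPM did not. For Id4, 5 to 24 reads were counted in each sample, and its log2 fold change was -0.21 (adjusted p = 0.77, edgeR). Id1 and Id3 thus held nearly all of the ID RNA, and the summed TPM of the 4 ID genes was 213, 181 and 201 in the control and 109, 105 and 98.1 in the knockout. The E-protein genes Tcf3, Tcf4 and Tcf12, whose products the ID proteins bind, did not follow that direction together. Tcf3 had a log2 fold change of -0.19, Tcf4 of 0.23 and Tcf12 of 0.40. All passed the edgeR test, as did 36.6% of all genes tested, and Tcf3 overlapped between the groups by TPM. Their summed TPM lay between 212 and 235 in the control and between 227 and 242 in the knockout.

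Of the feedback inhibitor genes, Smad6 was lower in the knockout and Smad7 did not pass the test. Smad6 (chromosome 9, 63860341 to 63929793, minus strand), whose product mainly restrains BMP receptors, had 9.43, 7.77 and 8.78 TPM in the control and 6.60, 6.29 and 4.47 TPM in the knockout. The groups did not overlap, although control replicate 2 and knockout replicate 1 were close. The log2 fold change was -0.63 (edgeR, standard error 0.12, adjusted p = 0.0017), a 1.55-fold decrease with a 95% interval from 1.29 to 1.87. With limma on log2(TPM + 0.1) it was -0.59 and did not pass (adjusted p = 0.057). Smad7, whose product restrains both the BMP and the TGF-β branch, had 28, 27.6 and 29.7 TPM in the control and 28.8, 32.8 and 29.0 TPM in the knockout. Its groups overlapped, with a log2 fold change of -0.01 and a 95% interval from -0.15 to 0.14 (adjusted p = 0.95, edgeR). That interval does not reach the log2 fold change of Bmp2 or of Smad6. The ratio of Smad6 to Smad7 in TPM was 0.337, 0.281 and 0.295 in the control and 0.229, 0.192 and 0.154 in the knockout, which do not overlap (two-sided exact permutation p = 0.1, the smallest that 3 against 3 can give).

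The starts of Id3 and Smad6, which fell, and of Grem1, which rose, are shown because SMAD complexes are known to bind GC-rich elements and the palindrome below. The sequences come from RefSeq (GRCm38.p6) and run from 250 bases before to 30 bases after the start, on the strand of the gene. Each was located in GRCm39 by an exact and single match: Id3 at chr4:135870883-135871162 (plus strand), Smad6 at chr9:63929312-63929591 (minus strand) and Grem1 at chr2:113588964-113589243 (minus strand). Capitals mark GGCGCC, a GC-rich SMAD1/5 element, or GTCTAGAC, the palindromic SMAD element; both read the same on either strand and share no bases here.
Id3: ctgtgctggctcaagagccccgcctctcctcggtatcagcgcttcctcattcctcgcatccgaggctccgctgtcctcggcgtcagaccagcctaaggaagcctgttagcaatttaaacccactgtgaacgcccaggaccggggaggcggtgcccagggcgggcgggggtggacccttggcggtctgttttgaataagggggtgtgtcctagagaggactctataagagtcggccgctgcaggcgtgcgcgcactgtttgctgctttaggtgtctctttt
Smad6: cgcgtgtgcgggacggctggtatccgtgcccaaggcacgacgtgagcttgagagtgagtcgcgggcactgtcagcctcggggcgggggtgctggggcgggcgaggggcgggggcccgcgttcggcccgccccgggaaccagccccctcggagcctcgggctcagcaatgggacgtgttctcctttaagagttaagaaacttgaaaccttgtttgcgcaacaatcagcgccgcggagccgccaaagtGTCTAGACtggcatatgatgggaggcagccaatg
Grem1: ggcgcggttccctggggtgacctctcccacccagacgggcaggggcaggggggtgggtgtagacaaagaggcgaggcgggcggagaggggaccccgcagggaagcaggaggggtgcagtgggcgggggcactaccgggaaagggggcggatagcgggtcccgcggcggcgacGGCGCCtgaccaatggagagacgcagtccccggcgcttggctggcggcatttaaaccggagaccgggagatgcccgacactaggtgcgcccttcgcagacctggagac
Smad6 holds GTCTAGAC across its start, from base -4, a word found in 0.192% of the 32851 promoter windows of this length. Grem1 holds GGCGCC from base -78, found in 10.9% of the windows. Id3 holds neither. Promoters of 7 of the 10 genes were in the table. Of these, 4 held GGCGCC, namely Bmpr1a, Bmpr2, Id2 and Smad9, and Smad6 alone held GTCTAGAC. Bmpr1a, Bmpr2 and Id2 did not pass the expression test, and Smad9 was too low to be tested. The promoters of Bmp2, Id1 and Smad7 were not analysed here. Such matches describe letters in these windows and not binding.

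Across the 10 genes, 9 were tested, and 4 passed at an adjusted p of 0.05 or less (edgeR), Bmp2 higher and Id1, Id3 and Smad6 lower in the knockout. Over all genes tested 36.6% passed, so nothing particular to these genes is read from 4 of 9. The normalized counts of 5 of the 9 did not overlap between the groups, against 48.4% of all genes. With the study's thresholds, which ask for more than a 2-fold change and a difference above 4 (here taken in TPM) besides the adjusted p, Bmp2 and Id1 were called; 1.79% of all genes tested were. Without control replicate 2, Id3 was the third.

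Of 18 genes listed as BMP responses, 13 were tested. Of these, 3 were higher and 5 lower in the knockout, with a median log2 fold change of -0.22; over all genes 18.2% were higher and 18.4% lower. Atoh8 and Tmem100, which are in these counts, met the filter on low counts through the group where each was high. The lower genes were Id1, Id3, Smad6, Atoh8 and Runx2. Atoh8, a basic helix-loop-helix factor gene and direct BMP SMAD target, had 48, 41 and 49 reads in the control and 5, 11 and 4 reads in the knockout, or 1.71, 1.29 and 1.42 TPM against 0.222, 0.395 and 0.126 TPM. Its log2 fold change was -2.79 (edgeR, standard error 0.39, adjusted p = 0.00012), and it met the filter on low counts through its control samples. Runx2, the osteoblast master regulator gene, fell by 0.27 on the log2 scale, from 14.8 ± 0.696 to 13.4 ± 0.523 TPM (SD, n = 3 each).

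The higher response genes were Bambi, Msx1 and Tmem100. Msx1, a homeobox gene of the neural crest induced by BMP, had 14.9, 12.6 and 15.1 TPM in the control and 26.0, 27.7 and 26.7 TPM in the knockout, or 0.82 higher on the log2 scale (edgeR, standard error 0.093, adjusted p = 2.3e-05). Tmem100, a membrane protein gene known from BMP9 responses of endothelium, had 6, 2 and 4 reads in the control and 14, 38 and 30 in the knockout. Its log2 fold change was 2.68 (standard error 0.50), and it met the filter on low counts through its knockout samples. On log2(TPM + 1) the log2 fold changes of Tmem100 and Atoh8 were 0.94 and -0.99, a scale that understates the change of genes near or below 1 TPM. The related homeobox genes Msx2 and Dlx2 had log2 fold changes of -0.56 and -0.22 and did not pass (adjusted p = 0.17 and 0.22, edgeR).

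**Figure D3:**
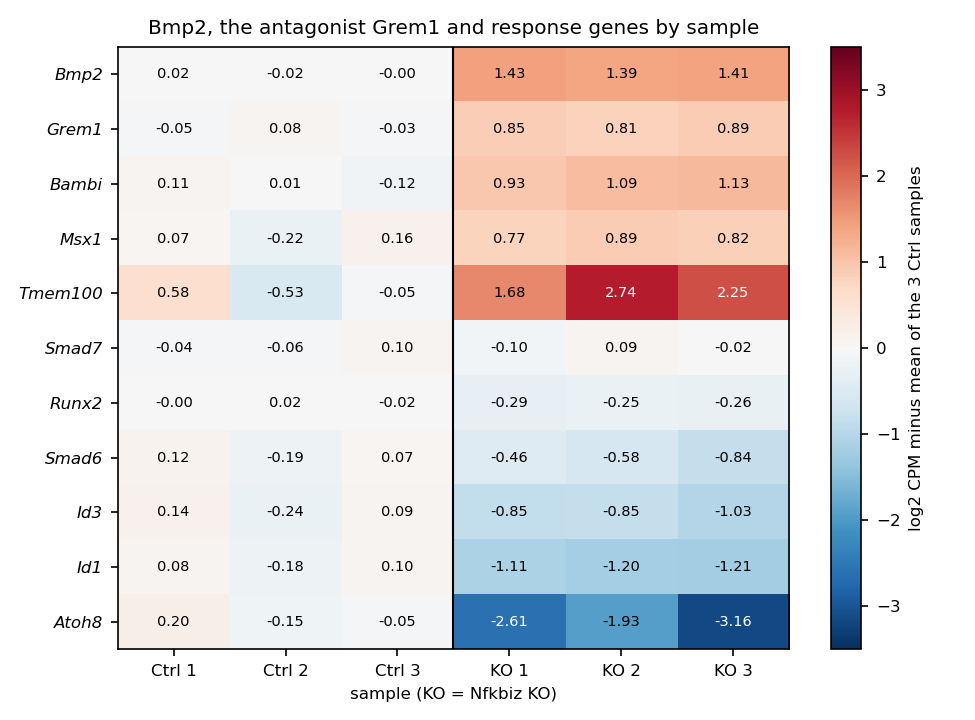
Normalized log2 CPM (read counts scaled to library size) of each sample minus the mean of the 3 Ctrl samples for Bmp2, Grem1, Smad7 and the 8 response genes that passed the test, red above and blue below 0, with the value printed in each cell. Bmp2 is at 1.39 to 1.43 in the 3 Nfkbiz KO samples, Bambi, Msx1 and Tmem100 are also above 0, Smad7 is near 0, and Id1 is at -1.11 to -1.21 with Id3, Smad6 and Atoh8 also below 0.

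While Bmp2 rose, the response genes that passed lay in both directions, with Id1 and Id3, the most abundant, opposite to Bmp2. In TPM, Id1 RNA was 1.08, 0.934 and 1.10 times that of Bmp2 in the control samples and 0.176, 0.172 and 0.168 times that of Bmp2 in the knockout samples. For Id3 these ratios were 1.01, 0.806 and 0.972 in the control and 0.189, 0.195 and 0.170 in the knockout. The ratios of the groups do not overlap, which follows from the directions of the single genes and is no further test. A pooled correlation of these genes with Bmp2 was not computed, since the samples form 2 separate clusters, and 3 samples within a group are too few.

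Taking all 5 pathway lists as one, 47 of 71 genes were tested and 22 passed, 12 higher and 10 lower in the knockout, or 46.8% against 36.6% of all genes. The other 24 genes were too low to be tested, 9 of them with 0 reads in all 6 samples. The lists were written from general knowledge of the pathway, with results for Bmp2 already known.

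The genes most like Bmp2 across the 6 samples were Tbx20, Gm4841, Ehd4, Nr1d1 and Niban1. Likeness was the root mean square difference in log2 CPM after subtracting each gene's own Ctrl mean, and among 10289 other genes with at least 4 TPM in either group it was smallest for these 5, from 0.051 to 0.063. Tbx20, a T-box transcription factor gene, had 10.1 ± 0.831 TPM in the control and 29.1 ± 0.758 TPM in the knockout, and Ehd4, which encodes an endocytic ATPase, had 39.3 ± 2.74 and 110 ± 2.52 TPM (SD, n = 3 each). Nr1d1, the gene of the clock repressor REV-ERBα, had 13.4 ± 1.24 and 36.7 ± 0.699 TPM. Their log2 fold changes were 1.42, 1.35 and 1.35. Because each Ctrl mean was subtracted, likeness mostly reflects the fold change, so similar log2 fold changes follow from the measure. Among the pathway genes, Bambi was nearest to Bmp2 at 0.27, the 93rd of all, and Id1 was among the farthest at 1.83, the 10170th.

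**Figure D4:**
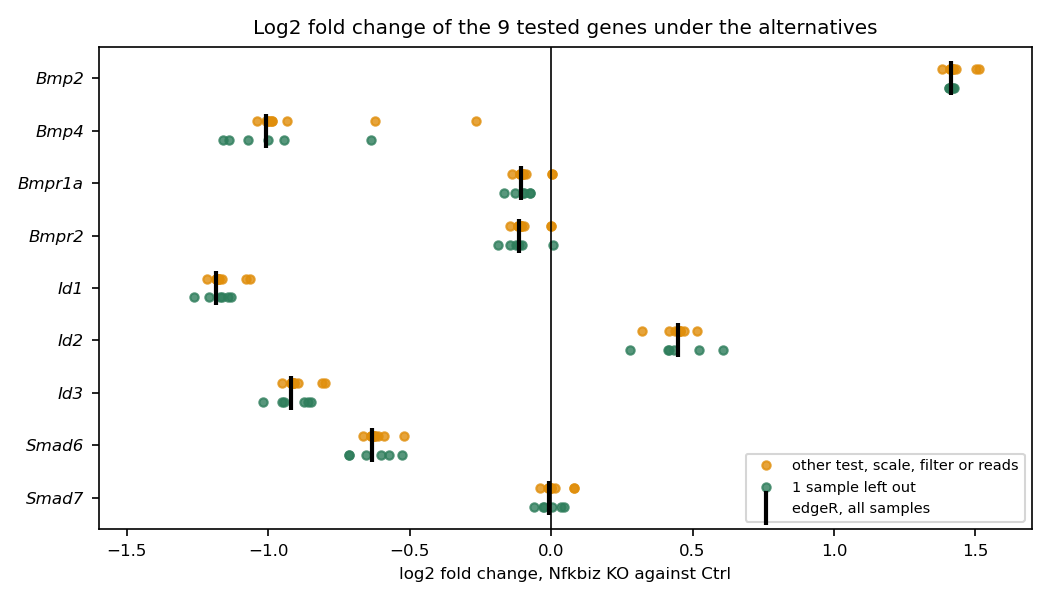
Log2 fold change (Nfkbiz KO against Ctrl) of the 9 tested genes in edgeR with all samples (black bars), under the other tests, scales, filters and reads (orange) and with 1 sample left out (green). Bmp2 stays between 1.38 and 1.51 and Id1 between -1.26 and -1.07, whereas Bmpr1a, Bmpr2 and Smad7 scatter around or near 0.

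Strand was not used in counting, so reads from a gene and an overlapping antisense gene cannot be told apart. In GRCm39 annotation (GENCODE), 6 of the 10 genes overlap a gene on the opposite strand. Of these 9 overlapping genes, 4 were in the deposited tables and had at most 8 reads in any sample, and the others were not analysed here. The 4 overlap Id2, Bmpr1a or Bmp4. Those that overlap Id1 and Id3 are among the others, so the low counts do not cover Id1 and Id3. At least 96.6% of the reads of each tested gene of the group mapped uniquely.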

How the data were processed

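RNA of 3 Ctrl and 3 Nfkbiz KO samples of D4M-3A cells was sequenced by paired-end reads. Per the study's methods, the authors mapped reads with CLC Genomics Workbench 24.0 to GRCm39, counting reads regardless of strand and allowing multiple hits; the labels list GRCm38, and the annotation version is not given in the sources used here. The deposited tables give total and unique gene reads as raw counts, and TPM and RPKM by the authors from exon reads, with a decimal comma; RPKM was not used.

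Total gene reads were tested with edgeR 4.0.16 in R 4.3.3 (TMM, filterByExpr with minimum count 10, minimum total 15, quasi-likelihood test, Benjamini-Hochberg adjustment over 14419 genes). A gene passed at an adjusted p of 0.05 or less. Standard errors are the log2 fold change over the square root of F, and 95% intervals use the degrees of freedom of the test. Exact permutation tests and overlap used log2 CPM, except for ratios in TPM. The 10 genes, the lists and the rules were chosen with earlier results of these data known. Named genes are the 10, listed pathway genes that passed with at least a 1.5-fold change, the targeted gene and the 5 genes most like Bmp2; others are named with a count or list they belong to. Samples with the same replicate number had deviations that correlated at 0.037, -0.023 and 0.026 across genes. These values gave no sign of pairing by number but cannot exclude it. The main test treated the samples as unpaired.

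Alternatives were DESeq2 1.42.0, limma 3.58.1 on log2(TPM + 1) and log2(TPM + 0.1), the likelihood-ratio test, other normalizations and filters, unique reads, a replicate block and each sample left out. The edgeR procedure was tested on simulated data. A sample's count of 0 allows up to 0.0668 to 0.0931 CPM (3 counts), for counting error only.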

Additional observations from a re-analysis of the deposited data

How the results depend on the processing

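With all 17 alternatives, Bmp2, Id1 and Id3 kept their direction and passed; for Smad6 this held in 16, since limma on log2(TPM + 0.1) gave -0.59 (adjusted p = 0.057). With 1 sample left out, the log2 fold change of Bmp2 lay between 1.41 and 1.42, of Id1 between -1.26 and -1.13, of Id3 between -1.02 and -0.85 and of Smad6 between -0.72 and -0.53. Bmp4 passed in the likelihood-ratio test at -1.01 (adjusted p = 0.036, edgeR), against adjusted p up to 0.33 elsewhere. Bmp4 and Id2 kept their sign in all alternatives that gave a value, while Smad7, Bmpr1a and Bmpr2, all close to 0, changed sign in some. Smad7 was at 0.013 by library size only, 0.00085 with DESeq2, 0.00064 with no filter, and 0.08 with limma at either pseudocount (0.0800 and 0.0824); with 1 sample left out it lay between -0.060 and 0.044. Bmpr1a was at 0.0025 and 0.0027 with limma on log2(TPM + 1) and log2(TPM + 0.1) and between -0.17 and -0.074 with 1 sample left out, and Bmpr2 was between -0.19 and 0.0064. The count of lower genes over all genes fell from 2647 to 1327 and 1279 with limma at these pseudocounts, where the median over all genes was 0.06 and 0.08, and of the 5 lower response genes 3 were left at log2(TPM + 0.1). The cause was not tested. With the replicate block, 4 of the 9 tested genes of the group and 22 of the 47 tested pathway genes passed, as without it. Over all genes tested, 35.3% passed with the block. Bmp2 was at 1.41 with the block, and no call among the 10 changed. Depth limits what can be said of Smad9, Bmp4 and Id2.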
